A study of Mus musculus with 24 samples.

Results

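Integrins, selectins, tetraspanins and other adhesion molecules were followed across untreated and antibiotic-exposed mice in terminal ileum, where the small intestine ends. The genes were taken by name from an nCounter mouse immunology panel, in which colour-coded probe pairs count RNA molecules directly. All genes whose symbol starts with Itga, Itgb, Icam or Sel were included, together with Vcam1, Pecam1, Cdh5, Cd34, Ncam1, Cd44, Cd9, Cd53, Cd81, Cd82, Cd97, Cd99, Cd164, Spn and Fn1. The gut homing chain Itga4 was kept apart from this set. This gave 30 of the 547 genes of the panel, and all 30 were tested.

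The mice were C57BL/6 and were sampled at week 7 of life. Control mice (n = 7, 4 males and 3 females) drank water without antibiotic. PAT1 mice (pulsed antibiotic treatment, n = 7, 4 males and 3 females) received 1 course of the macrolide tylosin while nursing, through the treated dam. PAT3 mice (n = 10, 4 males and 6 females) received that course and 2 more after weaning, 3 in all. Groups follow the sample labels, and a figure legend of the study gives other sizes for the PAT1 and PAT3 groups, a difference that could not be traced to a sample. Whole litters were assigned to a group and mice were housed by sex and group, so litter and cage cannot be told apart from treatment. The question was whether 1 early course leaves a lasting mark on the host, and how it compares with repeated courses.

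Leukocytes enter tissue in steps. Selectins let them roll on the vessel wall by binding carbohydrate-bearing mucins, chemokines then activate integrins, and activated integrins hold the cell to immunoglobulin-type ligands such as the ICAMs and VCAM-1 before it passes between endothelial cells. An integrin is a pair of an alpha and a beta chain. The beta 2 chain (Itgb2) pairs with Itgal, Itgam or Itgax on leukocytes, and the beta 1 chain (Itgb1) pairs with chains such as Itga5 and Itga6 to bind fibronectin or laminin in many cell types. Tetraspanins (Cd9, Cd53, Cd81, Cd82) are membrane proteins that gather integrins and other receptors into clusters. The small intestine holds many of these cells at once, with leukocytes in the epithelium and lamina propria and lymphoid follicles in the wall.

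Values below are log2 normalized counts as deposited, 1 unit being a doubling. Each gene has its own probe, so values are compared between mice for 1 gene and not between genes. Recovered totals ran from 171671 to 782392 counts per sample, and the shallowest samples were PAT1 replicate 1 (171671) and PAT3 replicate 7 (265500). Intestinal epithelial and T cell genes were checked first, with Control means of 15.52 for Pigr, 15.65 for Itln1 and 7.21 for Cd3e. The B cell list (12 genes measured) varied widely in PAT1, where its mean per sample ran from 4.53 to 8.26, against 4.73 to 6.25 in Control and 4.15 to 5.54 in PAT3. The median over all genes was lower than in Control by a shift of -0.14 in PAT1 and -0.19 in PAT3, so each fold change below is relative to the deposited size factors.

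Adhesion genes moved in opposite directions. The leukocyte genes Spn and Itgam were lower in both regimens and Itgal in PAT3, whereas Cd99, Cd9, Cd81, Ncam1, Cd34 and Fn1 were higher in PAT3. Against Control, 4 of the 30 genes were called in PAT1 (adjusted p under 0.05 in limma's moderated test over all genes), with Cd82 and Cd99 higher and Spn and Itgam lower. Over all 547 genes the same test called 18.5%, against 13.3% of the adhesion genes. In PAT3, 9 of the 30 genes were called, 6 higher (Cd9, Cd34, Cd81, Cd99, Fn1 and Ncam1) and 3 lower (Spn, Itgal and Itgam). This is 30% of the set, against 31.8% of all genes. By direction, 20% of the set was called higher in PAT3, against 13.9% of all genes, and 10% was called lower, against 17.9%. The adhesion genes were thus called about as often as the panel as a whole. Without the 2 shallowest samples (an alternative chosen after seeing the data), 7 of 30 (23.3%) were called in PAT1 and 14 of 30 (46.7%) in PAT3, against 24.5% and 41.9% of all genes.

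The genes called in both regimens were Spn, Itgam and Cd99, 3 of 30 (10%) against 14.1% of all genes, with the same Control samples in both comparisons. By the F-test among the 3 groups, 8 of 30 (26.7%) were called, against 34.6% of all genes. The median log2 fold change over the set was -0.07 in PAT1 and 0.20 in PAT3, against 0.010 and 0.03 over all genes. At an unadjusted p under 0.05, 8 of 30 (26.7%) differed in PAT1, against 28.7% of all genes, and 12 of 30 (40%) in PAT3, against 43.7%. The fold change was above 0 for 14 of 30 genes (46.7%) in PAT1 and 19 of 30 (63.3%) in PAT3, against 51.9% and 52.1% of all genes. Split by direction, the PAT3 calls depended on scaling, with 11 higher and 3 lower after each sample was re-centred on its median, where 27.8% of all genes were higher and 14.3% lower. In PAT1, quantile normalization gave 1 higher and 3 lower, with 8.78% of all genes higher and 11.5% lower.

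**Figure D1:**
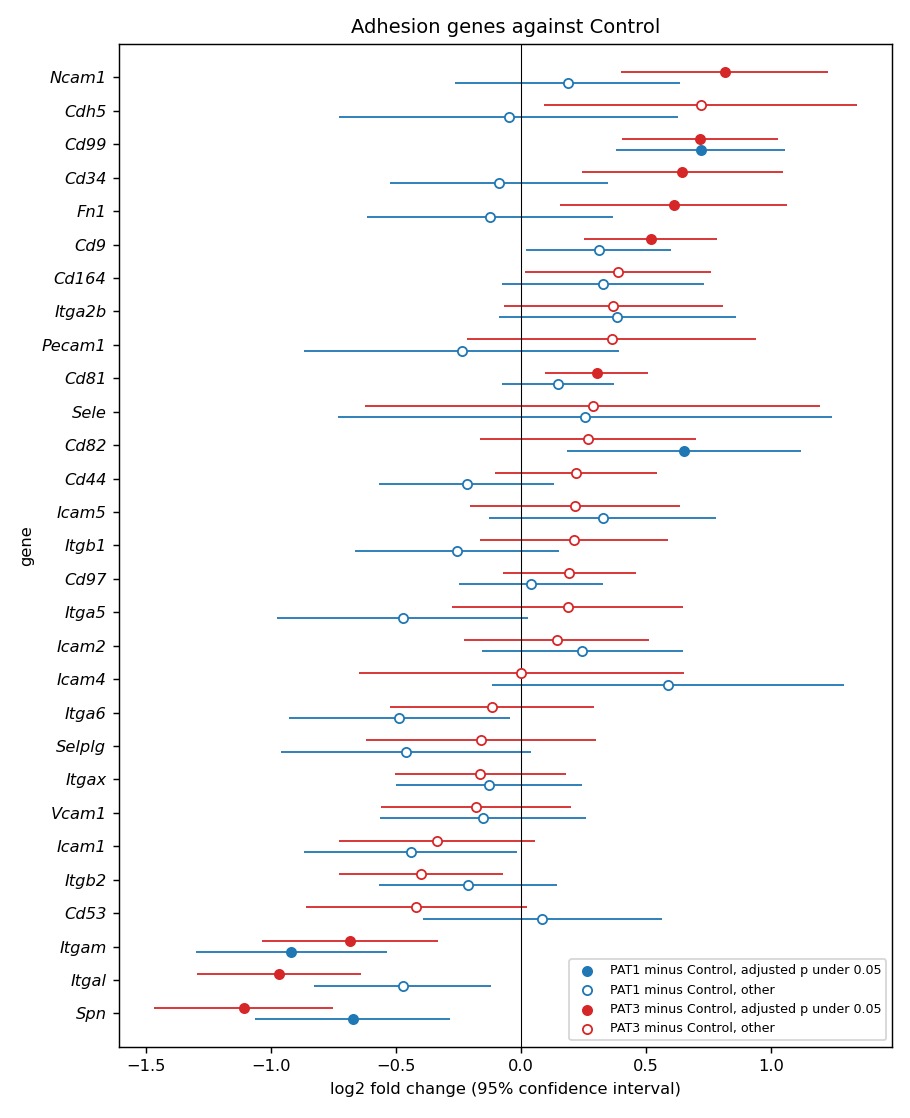
Log2 fold change of 29 of the 30 adhesion genes (vertical axis, ordered by the PAT3 value) against Control, with 95% confidence intervals from limma, for PAT1 (blue) and PAT3 (red). Filled points have an adjusted p under 0.05 over all 547 genes; Spn, Itgal and Itgam lie at the low end and Ncam1, Cdh5 and Cd99 at the high end in PAT3, and Cdh5 is not called.

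Spn showed the largest fall of the set in PAT3. It encodes CD43 (leukosialin), a heavily glycosylated mucin on T cells and other leukocytes. In Control, Spn ran from 6.73 to 7.19 (median 6.98) log2 normalized counts, in PAT1 from 5.89 to 7.12 (median 6.11) and in PAT3 from 5.20 to 6.39 (median 5.81). Every PAT3 sample lay below every Control sample, whereas PAT1 replicate 1 (7.12) lay among the Controls and the other PAT1 samples lay below them. By limma, Spn fell in PAT1 (log2 fold change -0.67, SE 0.19, adjusted p = 0.0120) and in PAT3 (log2 fold change -1.11, SE 0.17, adjusted p = 2.25e-05), the latter being 0.464 times the Control level. The difference between the PAT groups did not pass the test (log2 fold change -0.43, SE 0.17, adjusted p = 0.104). In a bulk sample, fewer cells of a type and less RNA per cell cannot be told apart.

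Itgal encodes the alpha L chain of LFA-1 (CD11a), the integrin with which lymphocytes bind ICAMs. In Control, Itgal ran from 7.56 to 8.12 (median 7.76) log2 normalized counts, in PAT1 from 6.88 to 8.03 (median 7.21) and in PAT3 from 6.49 to 7.48 (median 6.77). The PAT3 samples lay below all Controls, and PAT3 replicate 7 was the highest of them. In PAT1, replicate 7 (8.03) and replicate 1 (7.58) lay within the Control range. Itgal fell in PAT3 (log2 fold change -0.97, SE 0.16, adjusted p = 3.69e-05), to 0.511 times the Control level. In PAT1 it missed the threshold (log2 fold change -0.47, SE 0.17, adjusted p = 0.0546), and 10 of 40 alternative settings called it there (adjusted p up to 0.697). It was past it in PAT1 without PAT1 replicate 7 (-0.59, adjusted p = 0.00850), without PAT1 replicate 1 (-0.52, adjusted p = 0.0368), without PAT3 replicate 7 (-0.47, adjusted p = 0.0320) and with the mean of the B cell list as a covariate (-0.62, adjusted p = 0.00685).

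Itgam encodes the alpha M chain of Mac-1 (CD11b), found on monocytes, macrophages, granulocytes and natural killer cells. In Control, Itgam ran from 8.15 to 8.79 (median 8.47) log2 normalized counts, in PAT1 from 6.87 to 8.17 (median 7.69) and in PAT3 from 7.39 to 8.04 (median 7.85). All PAT3 samples lay below all Controls. In PAT1 all samples but replicate 5 (8.17) did, and replicates 1 and 2, both male, were the lowest of the whole series. Itgam fell in PAT1 (log2 fold change -0.92, SE 0.19, adjusted p = 0.000865) and in PAT3 (log2 fold change -0.68, SE 0.17, adjusted p = 0.00353), which is 0.529 and 0.623 times the Control level. Between the PAT groups its difference missed the threshold (log2 fold change 0.24, SE 0.17, adjusted p = 0.386). Over all genes, 7.31% lay wholly below Control in PAT3, against 3 of 30 (10%) here. In PAT1 the figures were 3.84% of all genes and 0 of 30.

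Itgb2, the shared beta 2 chain, moved less than Itgal and Itgam. In Control, Itgb2 ran from 8.04 to 8.55 (median 8.16) log2 normalized counts, in PAT1 from 7.45 to 8.70 (median 7.89) and in PAT3 from 7.39 to 8.35 (median 7.74). The groups overlapped, and PAT1 replicate 1 was the highest sample of the series. Its difference missed the threshold in PAT3 (log2 fold change -0.40, SE 0.16, adjusted p = 0.0554) and in PAT1 (log2 fold change -0.21, SE 0.17, adjusted p = 0.434). Of 40 alternative settings, 12 called it in PAT3. In PAT3 it was past the threshold without PAT3 replicate 7 (-0.46, adjusted p = 0.0208) or replicate 5 (-0.43, adjusted p = 0.0406), without PAT1 replicate 1, 6 or 7 (adjusted p = 0.0316, 0.0447 and 0.0475), and with voom on the recovered counts (adjusted p = 0.0383). Itgax, the alpha X chain (CD11c) of dendritic cells and some macrophages and lymphocytes, had overlapping groups, with differences of -0.13 (95% interval -0.50 to 0.24, adjusted p = 0.680) in PAT1 and -0.16 (95% interval -0.50 to 0.18, adjusted p = 0.473) in PAT3.

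The log2 value of Itgal minus that of Itgb2 within a sample does not depend on the scaling of the sample, and is given as a description with no test, since the probes of the 2 genes differ. It ran from -0.62 to -0.22 (median -0.43) in Control, from -1.13 to -0.41 (median -0.70) in PAT1 and from -1.40 to -0.64 (median -0.98) in PAT3. The PAT3 samples lay below all Controls in this difference. For Itgam minus Itgb2, the ranges overlapped, with medians of 0.30, -0.53 and -0.01 in Control, PAT1 and PAT3.

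Markers of the cells that carry these proteins moved as well. Among 15 measured T cell genes, PAT1 had 4 lower, PAT3 had 11 lower and neither had any higher, and the mean of the list per sample ran from 6.09 to 6.34 in Control, 5.31 to 6.30 in PAT1 and 4.77 to 5.81 in PAT3. Of 9 cytotoxic lymphocyte genes, PAT1 had 4 lower and PAT3 6, and the list mean ran from 6.22 to 6.73, 5.42 to 6.48 and 5.32 to 5.94 in Control, PAT1 and PAT3. Of 14 myeloid genes, Msr1 was the 1 gene called in either group (lower in both), and the list mean overlapped between groups (6.86 to 7.54, 6.74 to 7.45 and 6.76 to 7.40). Over all genes, 11.2% were called lower in PAT1 and 17.9% in PAT3. None of the T cell genes was at 0. The part of these cell types in the falls of Spn, Itgal and Itgam was not tested.

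**Figure D2:**
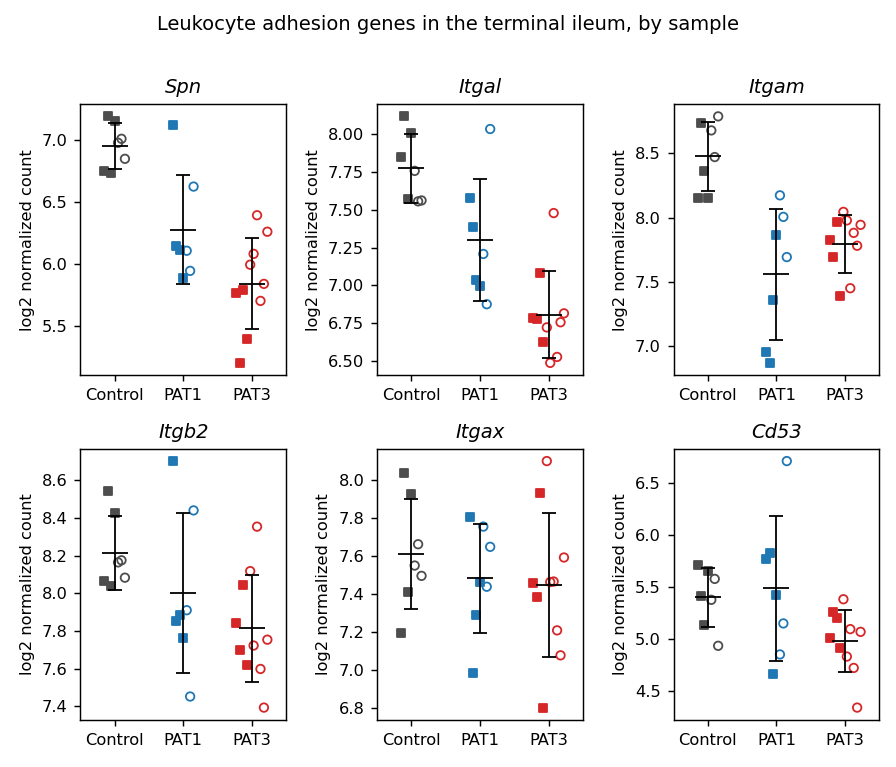
Log2 normalized counts of 6 leukocyte adhesion genes (vertical axes, separate scales) in each sample of Control (n = 7), PAT1 (n = 7) and PAT3 (n = 10). Filled squares are males, open circles females, and bars give the mean ± SD; the PAT3 points of Spn, Itgal and Itgam lie below all Control points, and those of Itgb2, Itgax and Cd53 overlap them.

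Spn, Itgal, Itgam and Itgax lie in this order on mouse chromosome 7 in the RefSeq annotation of GRCm38.p6. Counted by the lowest coordinate of each gene, 8 other protein-coding genes begin between Spn and Itgal, 35 between Itgal and Itgam, and 0 between Itgam and Itgax. Itgax, the immediate neighbour of Itgam, was not called. The table of values names no genome build, so the order is RefSeq's alone. Because Spn and Itgam fell in both regimens and Itgax did not, the 250 bases before the start site that RefSeq's promoter table gives for each are shown next, 5′ to 3′ on the strand of the gene (GRCm38.p6), with matches to any of 4 motifs in capitals. The motifs searched on both strands were the ETS core AGGAAG, the RUNX motif TGTGGT, the Sp1 core GGGCGG and the TATA motif TATAAA, and no match overlapped another in the windows shown. The Spn window is chr7:127137824-127138073 on the minus strand, the Itgam window chr7:128062390-128062639 on the plus strand and the Itgax window chr7:128129300-128129549 on the plus strand.
Spn: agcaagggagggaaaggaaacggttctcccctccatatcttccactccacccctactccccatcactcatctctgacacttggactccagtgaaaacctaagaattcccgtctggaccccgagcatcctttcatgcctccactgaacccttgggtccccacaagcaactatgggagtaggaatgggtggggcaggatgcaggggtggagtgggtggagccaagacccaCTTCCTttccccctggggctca
Itgam: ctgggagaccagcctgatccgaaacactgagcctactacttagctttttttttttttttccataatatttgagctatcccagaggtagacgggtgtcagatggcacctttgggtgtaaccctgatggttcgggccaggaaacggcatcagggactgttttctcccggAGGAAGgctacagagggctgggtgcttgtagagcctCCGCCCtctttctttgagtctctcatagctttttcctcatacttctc
Itgax: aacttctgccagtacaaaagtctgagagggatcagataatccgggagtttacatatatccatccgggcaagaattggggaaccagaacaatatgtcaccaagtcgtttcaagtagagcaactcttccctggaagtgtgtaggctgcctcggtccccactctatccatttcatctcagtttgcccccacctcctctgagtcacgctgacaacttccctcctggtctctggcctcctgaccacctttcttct
The start site behind the Spn window lies 7729 bases inside the outermost 5′ end of the annotated gene, and that of Itgax 24 bases inside, so these windows are those of an inner start, whereas that of Itgam is at the outermost end. The Spn window held 1 ETS match and the Itgam window 1 ETS and 1 Sp1 match, whereas the Itgax window held no match to any of the 4. Of all 32851 RefSeq promoter windows of this length, 29.5% held the ETS core, 14.1% the RUNX motif, 32.7% the Sp1 core and 12.4% the TATA motif. Matches this common are a description of the letters.

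Cd99 was the 1 gene of the set called higher in both regimens. It encodes a small mucin-like surface protein that takes part in the passage of leukocytes between endothelial cells and is found on several cell types. In Control, Cd99 ran from 8.14 to 8.72 (median 8.36) log2 normalized counts, in PAT1 from 8.81 to 9.53 (median 9.21) and in PAT3 from 8.79 to 9.96 (median 9.10). All PAT1 and all PAT3 samples lay above all Controls, and PAT3 replicate 7 was the highest of the series. Within PAT3, the males (8.79 to 8.92) all lay below the females (9.07 to 9.96). The log2 fold change was 0.72 in PAT1 (SE 0.16, adjusted p = 0.00287) and 0.71 in PAT3 (SE 0.15, adjusted p = 0.000862), 1.64 times the Control level in each. Between the PAT groups the 95% interval of the difference ran from -0.32 to 0.31 (adjusted p = 0.991). The male means were 9.13 in PAT1 and 8.83 in PAT3, and the female means 9.17 and 9.35. In limma, the PAT3 call was lost in males alone (0.52, adjusted p = 0.0548) and the PAT1 call in females alone (0.58, adjusted p = 0.205). Over all genes, 2.38% lay wholly above Control in PAT1 and 2.01% in PAT3, against 1 of 30 (3.33%) here in each.

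The tetraspanins did not move as a group. Cd9, found on epithelium, platelets and many other cells, ran from 11.37 to 11.89 (median 11.57) in Control, from 11.31 to 12.36 (median 11.89) in PAT1 and from 11.71 to 12.29 (median 12.11) in PAT3. A single Control sample, replicate 3 (11.89), reached into the PAT3 range. Cd9 rose in PAT3 (log2 fold change 0.52, SE 0.13, adjusted p = 0.00345), and in PAT1 its difference missed the threshold (log2 fold change 0.31, SE 0.14, adjusted p = 0.141). Without PAT1 replicate 1 it was past it in PAT1 (0.40, adjusted p = 0.0274), and 4 of 40 alternative settings called it there.

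Cd81, a widely expressed tetraspanin, showed a small rise. In Control, Cd81 ran from 11.42 to 11.64 (median 11.54) log2 normalized counts, in PAT1 from 11.36 to 11.84 (median 11.73) and in PAT3 from 11.63 to 12.15 (median 11.81). Of the PAT3 samples, replicate 10 (11.63) lay within the Control range and the others above it. The change was called in PAT3 (log2 fold change 0.30, SE 0.10, adjusted p = 0.0227), a level 1.23 times that of Control, and was lost under quantile normalization (0.13, adjusted p = 0.448). The PAT3 call was also lost in males alone (0.35, adjusted p = 0.138) and in females alone (0.28, adjusted p = 0.299). In PAT1 the change was 0.15 (95% interval -0.08 to 0.37, adjusted p = 0.392).

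Cd82, a tetraspanin known as a suppressor of metastasis, rose in PAT1 and not in PAT3 by the test. In Control, Cd82 ran from 11.56 to 12.69 (median 12.49) log2 normalized counts, in PAT1 from 12.50 to 13.27 (median 12.93) and in PAT3 from 11.28 to 12.97 (median 12.66). PAT3 replicate 5 (11.28) was the lowest sample of the series and the one with the lowest mean of 5 enterocyte genes (11.80). The PAT1 change was close to the threshold (log2 fold change 0.65, SE 0.23, adjusted p = 0.0472). It was lost by the analysis of variance with Tukey's test that the study's methods name, called the methods' test below (adjusted p = 0.146), without any 1 of Control replicates 2, 4 and 6 (adjusted p = 0.114, 0.122 and 0.0781), without any 1 of PAT1 replicates 2, 3, 4, 5 and 6 (adjusted p from 0.0649 to 0.0991) and without any 1 of PAT3 replicates 1, 2, 4, 6, 8 and 9 (adjusted p from 0.0504 to 0.0545). The mean of the enterocyte genes per sample, of which Ccl25 and Btnl1 were called higher and Ceacam1 lower in PAT1, ran from 12.05 to 13.33 in Control, 12.18 to 13.65 in PAT1 and 11.80 to 13.57 in PAT3. With that mean as a covariate, the calls of Cd82 in PAT1 and of Cd9 in PAT3 were kept. Its part in the Cd82 and Cd9 values was not tested further. In PAT3 the Cd82 difference was 0.27 (95% interval -0.17 to 0.70, adjusted p = 0.348), and between the PAT groups -0.38 (95% interval -0.82 to 0.05, adjusted p = 0.234). Cd53, a tetraspanin restricted to leukocytes, had overlapping groups and lay lower in PAT3 by a value that missed the threshold (log2 fold change -0.42, SE 0.21, adjusted p = 0.136), its PAT1 difference being 0.09 (95% interval -0.39 to 0.56, adjusted p = 0.852). Its highest value was in PAT1 replicate 7 (6.71), the sample with the highest mean of the B cell list.

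Ncam1, the neural cell adhesion molecule, was highest on average in PAT3. In Control, Ncam1 ran from 6.60 to 7.85 (median 7.26) log2 normalized counts, in PAT1 from 6.65 to 8.27 (median 7.61) and in PAT3 from 7.65 to 8.74 (median 8.03). The lowest PAT3 sample lay above 6 of the 7 Controls, Control replicate 4 (7.85) being the exception. Ncam1 showed the largest rise of the set in PAT3 (log2 fold change 0.81, SE 0.20, adjusted p = 0.00309; higher than the Control mean in 10 of 10 samples), 1.76 times the Control level. In PAT1 its difference was 0.19 (95% interval -0.26 to 0.63, adjusted p = 0.602), and PAT3 lay above PAT1 by a value that missed the threshold (log2 fold change 0.63, SE 0.20, adjusted p = 0.0576) and was past it without PAT3 replicate 7 or 10 (adjusted p = 0.0298 and 0.0430) or without PAT1 replicate 5 or 6 (0.0188 and 0.0334). Cd164 (endolyn), a sialomucin of endosomes and the cell surface, lay higher in both groups by values that missed the threshold, at 0.33 (95% interval -0.08 to 0.73, adjusted p = 0.287) in PAT1 and 0.39 (95% interval 0.02 to 0.76, adjusted p = 0.103) in PAT3. Without PAT3 replicate 5 or 7, the PAT3 value of Cd164 was past it (adjusted p = 0.0397 and 0.0483), and 6 of 40 alternative settings called it.

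**Figure D3:**
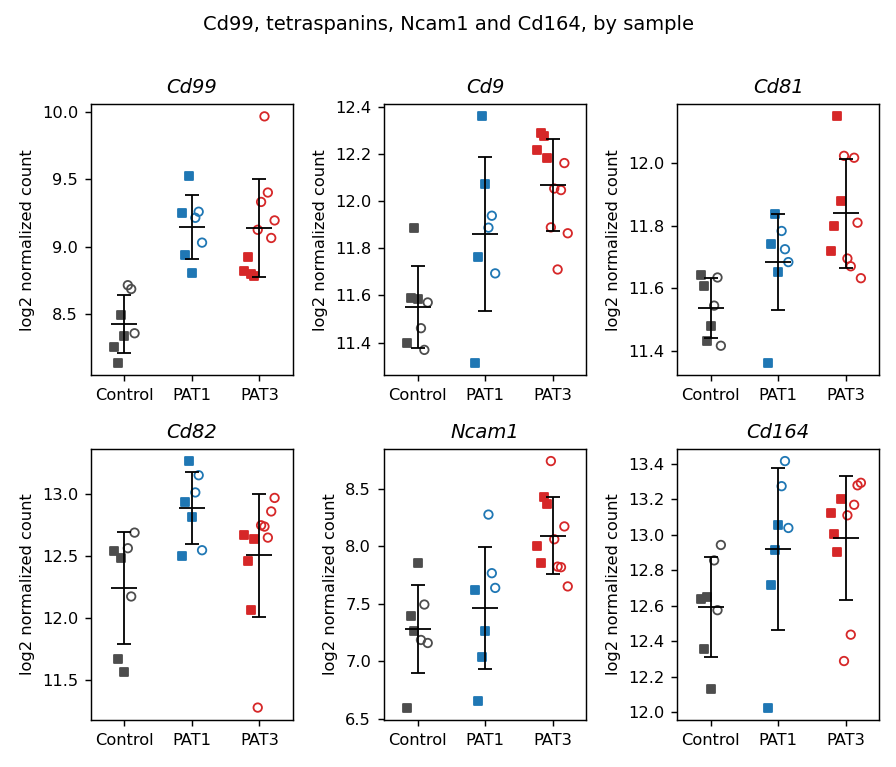
Log2 normalized counts of Cd99, the tetraspanins Cd9, Cd81 and Cd82, Ncam1 and Cd164 (vertical axes, separate scales) in each Control, PAT1 and PAT3 sample. Filled squares are males, open circles females, and bars give the mean ± SD; all PAT points of Cd99 lie above all Control points, whereas the other genes overlap in part.

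Of the endothelial and matrix genes, Cd34 and Fn1 rose in PAT3. Cd34, a sialomucin of endothelium, stromal and progenitor cells that can serve as a selectin ligand, ran from 8.53 to 9.41 (median 8.81) in Control, from 8.55 to 9.33 (median 8.65) in PAT1 and from 8.73 to 10.31 (median 9.59) in PAT3. The groups overlapped, with 6 of 10 PAT3 samples above the highest Control and PAT3 replicates 10 (8.73) and 7 (8.75) below the Control median. Cd34 rose in PAT3 (log2 fold change 0.64, SE 0.19, adjusted p = 0.0126), 1.56 times the Control level, and in PAT1 its difference was -0.09 (95% interval -0.52 to 0.35, adjusted p = 0.825). It was the 1 gene of 30 called between the PAT groups.

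Fn1 encodes fibronectin, the matrix protein bound by the integrin of Itga5 and Itgb1. In Control, Fn1 ran from 9.77 to 10.81 (median 10.36) log2 normalized counts, in PAT1 from 9.45 to 10.96 (median 10.42) and in PAT3 from 10.29 to 11.53 (median 10.97). The lowest samples were PAT1 replicates 2 and 3 (9.45 and 9.59), and 7 of 10 PAT3 samples lay above the highest Control. Fn1 rose in PAT3 (log2 fold change 0.61, SE 0.22, adjusted p = 0.0363), but the call was lost by the methods' test (adjusted p = 0.114), under quantile normalization (adjusted p = 0.140), with the B cell list as a covariate (adjusted p = 0.0867), without any 1 of Control replicates 1, 3, 5 and 7 (adjusted p from 0.0537 to 0.0976) and without any 1 of PAT3 replicates 2, 3, 4, 5 and 8 (adjusted p from 0.0533 to 0.0668). In PAT1 its difference was -0.13 (95% interval -0.62 to 0.37, adjusted p = 0.770).

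Pecam1 (CD31) and Cdh5 (VE-cadherin), which hold endothelial cells together, were highest on average in PAT3 but were not called. Pecam1 ran from 8.57 to 9.32 (median 9.10) in Control, from 7.82 to 9.53 (median 9.08) in PAT1 and from 7.65 to 10.07 (median 9.58) in PAT3. PAT3 replicate 7 (7.65) was the lowest sample of the series, far below the other PAT3 samples, of which the next was 8.98. The Pecam1 difference in PAT3 was 0.36 (95% interval -0.22 to 0.94, adjusted p = 0.345) with all samples and 0.56, adjusted p = 0.0517 without that sample. Without both shallowest samples (PAT1 replicate 1 as well) it was past the threshold (0.56, adjusted p = 0.0273), and 3 of 40 alternative settings called it.

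Cdh5 showed the same outlying sample. It ran from 5.94 to 6.84 (median 6.46) in Control, from 5.30 to 7.42 (median 6.44) in PAT1 and from 5.53 to 8.05 (median 7.17) in PAT3, where PAT3 replicate 7 was the lowest (5.53). Its difference in PAT3 missed the threshold with all samples (log2 fold change 0.72, SE 0.30, adjusted p = 0.0713) and passed it without PAT3 replicate 7 (0.89, adjusted p = 0.0109) and with each sample centred on its median (0.91, adjusted p = 0.0171). Of 40 alternative settings, 9 called it. Of 6 stromal genes measured, Pdgfrb (0.73, adjusted p = 0.00615) and Cxcl12 (0.40, adjusted p = 0.0238) were higher in PAT3, where 13.9% of all genes were higher. None of the 6 was called in PAT1. The mean of that list per sample ran from 7.33 to 8.11 in Control, 7.50 to 8.28 in PAT1 and 7.32 to 8.58 in PAT3, and its part in the rises of Cd34 and Fn1 was not tested.

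**Figure D4:**
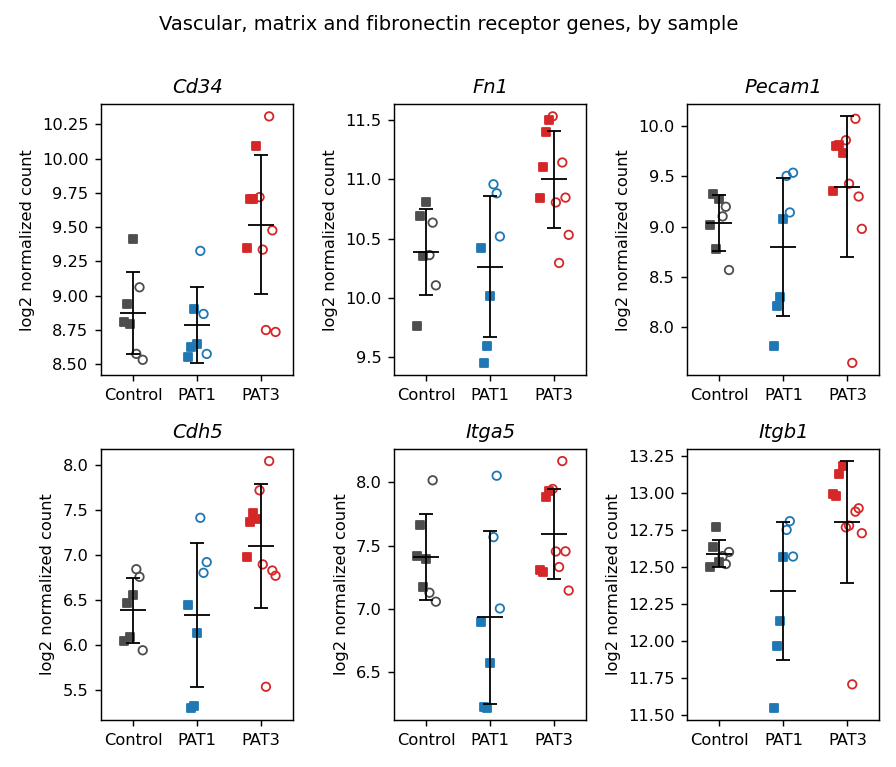
Log2 normalized counts of the endothelial genes Cd34, Pecam1 and Cdh5, of Fn1, and of the integrin chains Itga5 and Itgb1 (vertical axes, separate scales) in each Control, PAT1 and PAT3 sample. Filled squares are males, open circles females, and bars give the mean ± SD; PAT1 males lie below PAT1 females for Itga5, Pecam1, Cdh5, Fn1 and, by a narrow margin, Itgb1, and a single PAT3 female lies far below the others for Pecam1, Cdh5 and Itgb1.

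Cd9, Cd81 and Cd34 rose in PAT3, and their promoter windows are shown for comparison with those of Spn, Itgam and Itgax. The same 4 motifs are in capitals, and each window has the same length and build and lies before the outermost start of its gene. Cd99, Fn1, Ncam1 and Itgal were also called in PAT3, but the promoter table held no window for them. The Cd9 window is chr6:125494761-125495010 on the minus strand, the Cd81 window chr7:143052500-143052749 on the plus strand and the Cd34 window chr1:194938571-194938820 on the plus strand.
Cd9: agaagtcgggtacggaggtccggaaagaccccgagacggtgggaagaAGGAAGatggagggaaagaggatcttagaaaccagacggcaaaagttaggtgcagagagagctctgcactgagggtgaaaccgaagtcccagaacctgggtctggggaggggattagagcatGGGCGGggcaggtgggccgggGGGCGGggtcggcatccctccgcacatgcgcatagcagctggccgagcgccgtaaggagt
Cd81: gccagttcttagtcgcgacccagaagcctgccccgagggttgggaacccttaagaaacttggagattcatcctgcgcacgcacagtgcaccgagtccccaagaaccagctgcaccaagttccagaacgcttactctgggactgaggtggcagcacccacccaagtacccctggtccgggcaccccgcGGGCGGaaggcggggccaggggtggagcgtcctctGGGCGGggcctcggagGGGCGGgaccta
Cd34: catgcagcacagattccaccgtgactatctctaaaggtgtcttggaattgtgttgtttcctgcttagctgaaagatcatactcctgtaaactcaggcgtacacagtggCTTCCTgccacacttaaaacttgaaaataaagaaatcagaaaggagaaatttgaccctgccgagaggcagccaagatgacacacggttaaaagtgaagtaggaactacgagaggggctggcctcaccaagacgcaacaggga
The Cd9 window held 2 Sp1 matches and 1 ETS match, the Cd81 window 3 Sp1 matches, and the Cd34 window 1 ETS match. The windows of Cd9 and Cd81 were richer in G and C (61.6% and 65.6%) than those of Spn (56.8%), Itgam (49.6%), Itgax (50%) and Cd34 (46.4%), against a median of 52.4% over all windows.

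The integrin chains of epithelium and connective tissue were not called against Control. Itgb1, the common beta 1 chain, kept a narrow Control range, from 12.50 to 12.77 (median 12.57), and spread more widely in PAT1, from 11.55 to 12.81 (median 12.56), and in PAT3, from 11.71 to 13.18 (median 12.88). PAT3 replicate 7 (11.71) and PAT1 replicate 1 (11.55) were the lowest samples, and these are also the shallowest. Its differences were -0.25 (95% interval -0.66 to 0.15, adjusted p = 0.421) in PAT1 and 0.21 (95% interval -0.16 to 0.59, adjusted p = 0.396) in PAT3, the latter past the threshold without both of those samples (0.33, adjusted p = 0.0254). Itga6, which forms laminin receptors at the base of epithelial cells, was at -0.49 (95% interval -0.93 to -0.04, adjusted p = 0.131) in PAT1 and -0.12 (95% interval -0.52 to 0.29, adjusted p = 0.664) in PAT3. In PAT1 the Itga6 value was past the threshold with the enterocyte list as a covariate (-0.72, adjusted p = 0.000889) and under quantile normalization (-0.64, adjusted p = 0.0164).

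Itga5, the alpha 5 chain of the fibronectin receptor, was at -0.47 (95% interval -0.97 to 0.03, adjusted p = 0.196) in PAT1 and 0.19 (95% interval -0.28 to 0.65, adjusted p = 0.546) in PAT3. Without PAT1 replicate 6 the PAT1 value of Itga5 was past the threshold (-0.66, adjusted p = 0.0359), and 2 of 40 alternative settings called it. Itga2b, the alpha IIb chain of platelets, had median counts of 16, 15 and 19.5 in Control, PAT1 and PAT3 and differences of 0.38 (95% interval -0.09 to 0.86, adjusted p = 0.287) and 0.37 (95% interval -0.07 to 0.81, adjusted p = 0.188). The 2 other platelet genes measured, Gp1bb and Ppbp, were not called in any comparison.

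Cd44, the receptor for hyaluronan, was at -0.22 (95% interval -0.57 to 0.13, adjusted p = 0.422) in PAT1 and 0.22 (95% interval -0.10 to 0.54, adjusted p = 0.297) in PAT3. Cd97, an adhesion G protein-coupled receptor now named Adgre5, was at 0.04 (95% interval -0.25 to 0.33, adjusted p = 0.890) and 0.19 (95% interval -0.07 to 0.46, adjusted p = 0.259). Re-centring on the median brought the PAT3 values of Cd44 and Cd97 past the threshold (adjusted p = 0.0356 and 0.0216).

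Selplg and Sele had low counts, and neither was called. Selplg (PSGL-1), the main selectin ligand of leukocytes, had median counts of 12, 6 and 9.5 in Control, PAT1 and PAT3, and its differences were -0.46 (95% interval -0.96 to 0.04, adjusted p = 0.206) and -0.16 (95% interval -0.62 to 0.30, adjusted p = 0.591). Sele (E-selectin), which inflamed endothelium displays, had median counts of 7, 5 and 6 and differences of 0.26 (95% interval -0.73 to 1.24, adjusted p = 0.768) and 0.29 (95% interval -0.62 to 1.20, adjusted p = 0.629). The Sele intervals thus hold changes in both directions. None of the 30 genes had a count of 0 in any sample.

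The endothelial and leukocyte ligands of integrins were not called either. Icam1, bound by LFA-1 and Mac-1 and induced by inflammatory signals, ran from 6.55 to 7.73 (median 6.98) in Control, from 6.01 to 7.60 (median 6.78) in PAT1 and from 6.42 to 7.32 (median 6.77) in PAT3. Its differences were -0.44 (95% interval -0.87 to -0.02, adjusted p = 0.152) in PAT1 and -0.34 (95% interval -0.73 to 0.06, adjusted p = 0.180) in PAT3. PAT1 replicate 7 (7.60) was the highest PAT1 sample, and without it Icam1 was past the threshold (-0.59, adjusted p = 0.0271), the 1 of 40 alternative settings that called it in PAT1.

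Vcam1, the ligand of alpha 4 integrins, had differences of -0.15 (95% interval -0.56 to 0.26, adjusted p = 0.652) and -0.18 (95% interval -0.56 to 0.20, adjusted p = 0.471) in PAT1 and PAT3. Its highest value was also in PAT1 replicate 7 (7.71). Icam2, carried constitutively by endothelium and some leukocytes, was at 0.24 (95% interval -0.16 to 0.65, adjusted p = 0.430) and 0.14 (95% interval -0.23 to 0.51, adjusted p = 0.560). Icam4, known from red cells and their precursors, and Icam5, known from neurons, had median counts of 8 to 10 and 10 to 13. Icam4 was at 0.59 (95% interval -0.12 to 1.29, adjusted p = 0.270) and 0.00 (95% interval -0.65 to 0.65, adjusted p = 0.999), and Icam5 at 0.33 (95% interval -0.13 to 0.78, adjusted p = 0.351) and 0.22 (95% interval -0.20 to 0.64, adjusted p = 0.432).

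PAT3 was compared with PAT1 to ask how 3 courses differ from 1. The last PAT3 course came after weaning and the PAT1 course during nursing. The number of courses thus cannot be told apart from the age at the last course or the time since it. The gene called, Cd34, was higher in PAT3 (log2 fold change 0.73, SE 0.19, adjusted p = 0.0401), 1.66 times the PAT1 level, which is 3.33% of the set against 4.2% of all genes (1.46% higher and 2.74% lower). The fold change was above 0 for 17 of 30 genes (56.7%), against 47% of all. At an unadjusted p under 0.05 the count was 11 of 30 (36.7%), against 28.5% of all genes. None of the 30, and 0% of all genes, had PAT3 and PAT1 values that did not overlap. The call of Cd34 was lost with the B cell list as a covariate (adjusted p = 0.479), by the methods' test (adjusted p = 0.156) and without any 1 of PAT1 replicates 1, 2, 4 and 7 (adjusted p from 0.0542 to 0.135) or PAT3 replicates 1, 2, 3, 4, 5, 6, 8 and 9 (adjusted p from 0.0535 to 0.0759). Without PAT3 replicate 7, 10 of the 30 genes (33.3%) were called, 8 higher and 2 lower, against 18.6% of all genes (9.14% higher and 9.51% lower). Without PAT1 replicate 5 the count was 6 (20%, against 13% of all genes), and without PAT1 replicate 6 it was 7 (23.3%, against 15.7%). Without PAT3 replicate 10 it was 4 (13.3%, against 10.1%), and without Control replicate 1 it was 2 (6.67%, against 5.3%).

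Among the genes that missed the threshold in this comparison, the larger differences were 0.77 (95% interval 0.14 to 1.39, adjusted p = 0.102) for Cdh5, 0.74 (95% interval 0.28 to 1.19, adjusted p = 0.0551) for Fn1 and 0.66 (95% interval 0.20 to 1.12, adjusted p = 0.0673) for Itga5. Without PAT3 replicate 7, Cdh5 (0.94, adjusted p = 0.0219), Fn1 (0.81, adjusted p = 0.0177), Itga5 (0.69, adjusted p = 0.0417), Pecam1 (0.79, adjusted p = 0.0219) and Itgb1 (0.59, adjusted p = 0.0131) were past the threshold and higher in PAT3. Cd44 (0.50, adjusted p = 0.0258) and Ncam1 (0.66, adjusted p = 0.0298) were then higher as well, and Itgal (-0.57, adjusted p = 0.0148) and Spn (-0.50, adjusted p = 0.0443) lower. Without PAT1 replicate 6, a female, Fn1 (0.84, adjusted p = 0.0190), Itga5 (0.85, adjusted p = 0.0146) and Cd44 (0.50, adjusted p = 0.0373) were past the threshold as well. So were Ncam1 (0.68, adjusted p = 0.0334), Itgb1 (0.55, adjusted p = 0.0488) and Itgal (-0.57, adjusted p = 0.0253). That sample held the highest Itga5 (8.05) and Cd44 (9.93) and the lowest Itgal (6.88) of PAT1. Without PAT1 replicate 5, also female, Cdh5 (0.95, adjusted p = 0.0403), Fn1 (0.85, adjusted p = 0.0188) and Itga5 (0.76, adjusted p = 0.0325) were past it. So were Ncam1 (0.76, adjusted p = 0.0188) and Itgal (-0.51, adjusted p = 0.0480).

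Within PAT1, males lay below females without overlap for Itga5, Pecam1, Fn1, Cdh5, Itgb1, Cd97 and Ncam1, genes singled out after their values were seen. These are 7 of 30 (23.3%), and 13% of all genes separated in the same way, in 4 males against 3 females. Sex ran in part with depth in PAT1, with totals of 171671, 389743, 294135 and 631905 counts in males. The PAT1 females had 543394, 574243 and 782392 counts, and the part of depth in these sex differences was not tested. Itga5 ran from 6.22 to 6.90 in the 4 PAT1 males and from 7.00 to 8.05 in the 3 PAT1 females, whereas Control males (from 7.17 to 7.66) and females (from 7.06 to 8.02) overlapped. Pecam1 ran from 7.82 to 9.08 in PAT1 males and from 9.14 to 9.53 in PAT1 females. Fn1 ran from 9.45 to 10.42 and from 10.52 to 10.96, and Cdh5 from 5.30 to 6.44 and from 6.80 to 7.42. In PAT3, males lay wholly below females for Cd99 (3.33% of the set, against 1.65% of all genes). They lay wholly above females for Cd9 and Itgb1 (2 of 30, against 3.66% of all genes). Itgb1 ran from 12.97 to 13.18 in PAT3 males and from 11.71 to 12.89 in PAT3 females. In Control, males lay wholly below females for Itga6 (3.33%, against 3.84% of all genes). A test of treatment by sex called 0 of 30 genes, with 0.183% of all genes called. The smallest values were those of Itgb1 (unadjusted p = 0.00738 by limma's F-test, adjusted p = 0.168) and Fn1 (unadjusted p = 0.0101, adjusted p = 0.168).

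At an unadjusted p under 0.05 the treatment by sex test gave 7 of 30 (23.3%), against 18.3% of all genes. In PAT3 against PAT1, males alone gave 10 called genes of 30 (33.3%, against 23.6% of all genes) and females alone 0 (1 at an unadjusted p under 0.05, and 0% of all genes called), with 8 males and 9 females in these groups. With the size factor as a covariate and both sexes together, PAT3 against PAT1 gave 0 of 30 and 0% of all genes. The sexes were housed apart, so sex and cage cannot be told apart. Averaged over the groups, 0 of 30 genes were called between females and males in limma, against 0.366% of all genes. At an unadjusted p under 0.05 there were 2 (6.67%, against 11.7% of all genes), Cd99 and Itgam, both higher in females by 0.31 and 0.34, each with an adjusted p of 0.300.

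Other adhesion genes of the panel were taken from a list of homing integrins, immunoglobulin-type receptors, integrin signalling kinases and matrix genes. Of 22 measured, 1 was higher (Tgfbi) and 1 lower (Ceacam1) in PAT1, and 1 was higher (Tgfbi) and 4 lower (Ceacam1, Cd48, Cd226 and Lck) in PAT3. Their median log2 fold changes were -0.09 and -0.14. Tgfbi, a matrix protein that binds integrins, rose by 0.56 (adjusted p = 0.0387) and 0.51 (adjusted p = 0.0270). Ceacam1, an adhesion receptor of epithelium and leukocytes, changed by -1.26 (adjusted p = 0.00287) and -1.05 (adjusted p = 0.00377). Itga4, the chain shared by the gut homing integrin and the VCAM-1 receptor, was at -0.0029 (adjusted p = 0.992) and -0.11 (adjusted p = 0.599) and was called in neither group. Between the PAT groups, Cd2 (-1.05) and Lck (-0.71) were lower in PAT3, each with an adjusted p of 0.0401, where 2.74% of all genes were lower.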

How the data were processed

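RNA of the terminal ileum of 24 mice was measured with the nCounter GX mouse immunology panel. The authors normalized counts with DESeq2 (version not given), dividing a sample by its size factor, and the deposited table holds 547 genes on the log2 scale. Background subtraction is not given in the sources used here. Raising 2 to each deposited value gave whole multiples of 1 step per sample (100% of values within 0.01 counts), from which counts and totals were recovered. All 276 pairs of samples differed by more than counting noise (lowest chi-square 3.98 per degree of freedom).

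Members were found by symbol, and they and all gene lists were chosen with earlier results of these data known. All 30 members enter every count, and 1 of them, called in no comparison of the main test, is not reported here by itself. Of the 30, 24 had a mean log2 value of at least 5, and no filter was used in the main test. Groups came from the treatment label, and replicate numbers follow accession order. Limma 3.58.1 (lmFit and eBayes, R 4.3.3) was fitted to the deposited log2 values of all genes over all 24 samples without covariates, with Benjamini-Hochberg adjustment over 547 genes within a contrast (called: adjusted p under 0.05). The methods' test (aov and TukeyHSD) was an alternative, with other scaling, weights, covariates, voom and samples left out. P-values treat mice as independent. Promoters are RefSeq's (GRCm38.p6).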

Additional observations from a re-analysis of the deposited data

Results flagged for a closer look

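In 90 groups of values (30 genes in 3 groups), 9 had a lowest or highest sample that stood apart by Dixon's criterion at the 95% level, which flags about 1 in 20 groups by chance (4.5 of 90). PAT3 replicate 7 accounted for 4 of them: Cd99 (9.96, nearest sample 9.40), Cdh5 (5.53, nearest 6.77), Itgb1 (11.71, nearest 12.73) and Pecam1 (7.65, nearest 8.98). In PAT1, Cd81 was low in replicate 1 (11.36, nearest 11.65) and Vcam1 high in replicate 7 (7.71, nearest 6.72). Cd82 was low in PAT3 replicate 5 (11.28, nearest 12.07). In Control, Cd9 was high in replicate 3 (11.89, nearest 11.59) and Sele low in replicate 2 (-0.28, a count of 1, nearest 1.83).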

How the results depend on the processing

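Each gene was recomputed under 40 alternative settings in 3 contrasts (3582 values). Of these, 3395 stayed on their side of the threshold, 64 lost a call, 123 gained one and no called value changed sign. In PAT1 against Control, 4 genes were called, a count that was 3 to 6 as single samples were left out, 0 in females alone (5 at an unadjusted p under 0.05) and 7 without the 2 shallowest samples, an alternative chosen after seeing the data. In PAT3 against Control, 9 were called, with 8 to 12 as single samples were left out, 14 after re-centring on the median, 16 with sample weights, 5 in males alone, 3 in females alone and 14 without the 2 shallowest samples. In PAT3 against PAT1, 1 was called, with 0 to 10 as single samples were left out (10 without PAT3 replicate 7, 7 without PAT1 replicate 6, 6 without PAT1 replicate 5, 4 without PAT3 replicate 10, 2 without Control replicate 1, and 0 without PAT1 replicate 1, 2, 4 or 7 or PAT3 replicate 1, 2, 3, 4, 5, 6, 8 or 9). There the count was 2 under quantile normalization, 5 after re-centring, 5 with the low filter, 4 with voom, 3 with an intensity trend, 6 with sample weights, 10 in males alone, 7 with the enterocyte list as a covariate and 8 without the 2 shallowest samples. It was 0 in females alone (1 at an unadjusted p under 0.05), with the B cell list as a covariate (2), with the size factor as a covariate (7), with the compared groups alone (10) and by the methods' test (8). Among the 3 groups, 8 genes were called by the F-test, with 8 to 14 as single samples were left out (14 without PAT3 replicate 7), 17 with sample weights, 2 in females alone and 16 without the 2 shallowest samples. The counts by sex and by treatment and sex were 0 under each alternative run, which for the latter were 4 (2 scalings, the pseudocount and the low filter). Spn, Itgam and Cd99 in both groups, and Itgal, Cd9, Cd34, Cd81 and Ncam1 in PAT3, kept their calls when any single sample was left out. Of these calls, males alone lost Cd9, Cd81, Cd99 and Itgam in PAT3 and Spn in PAT1. Females alone lost Cd9, Cd81, Cd34, Itgal and Ncam1 in PAT3 and Spn, Itgam and Cd99 in PAT1. Over all genes, 101, 174 and 23 were called in PAT1 and PAT3 against Control and between them, against 57, 122 and 129 in males alone, 23, 57 and 0 in females alone and 136, 287 and 93 with sample weights. The cause of the changes was not tested. The groups hold different mice, so no paired analysis was run. Group medians were at most 13 counts for Sele, Selplg, Icam4 and Icam5, and the part of depth in their errors was not tested.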
